A study of Rattus norvegicus with 6 samples.

Results

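The genes described here are the STAT transcription factors, the JAK kinases and Socs3 of rat cells labelled PC12, a line derived from an adrenal pheochromocytoma. The members were chosen by name, as rows of the deposited tables of read counts and FPKM whose gene symbol was Stat2, Stat3, Stat4, Stat5a, Stat5b, Stat6, Jak1, Jak2 or Socs3. Of these 9 genes, 8 were measured among 18746 genes in the count table, and Stat4 was not analysed here. NQO1, a quinone reductase, was knocked down in 3 samples (siNQO1), and 3 samples received a control (siCtrl). The paper describes siRNAs, a targeting one and a nontargeting one, whereas the sample labels name shRNA and a plasmid as control. The reagents were brought in by lipofection. Polyadenylated RNA was sequenced, and the comparison addresses whether RNA levels of these genes differ after NQO1 knockdown.

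In JAK-STAT signaling, a cytokine or hormone brings its receptor chains together and the JAK kinases bound to these chains phosphorylate the receptor. STAT proteins dock there through their SH2 domains, are phosphorylated on a tyrosine, pair up and move to the nucleus, where they bind DNA. SOCS3 is made from a gene that STAT3 activates, and it binds JAKs and the shared receptor chain gp130 to shut the signal off. In neural cells STAT3 is best known for the response to ciliary neurotrophic factor and related cytokines. Phosphorylation, the step that switches these proteins on, was not measured here, and RNA levels do not show it.

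The libraries held 28873824 to 39467230 reads in genes. FPKM, the unit of the authors' table, scales fragments to transcript length and to sequencing depth, so that levels of different genes can be set side by side. Nqo1, the targeted gene, had 345 ± 24.1 FPKM under siCtrl and 77.9 ± 2.79 FPKM under siNQO1 (mean ± SD, n = 3). Where a gene's libraries are listed one by one, they stand in the order of replicates 1, 2 and 3. One control library, siCtrl replicate 2, stood apart on the first 2 principal components. On the first it scored 5.08, while the other siCtrl libraries scored -32.2 and -20.7 and those of siNQO1 12.1 to 19.6. On the second it scored -29, and all other libraries scored 0.477 to 12. Calls of the members and counts of the gene lists are given with and without it where it changes them. The cells were checked against defining markers. Of 12 chromaffin cell markers measured, Scg2 alone was over 1 FPKM in any library, and Th and Dbh, the enzymes of catecholamine synthesis, were at 0.0767 ± 0.0153 and 0.08 ± 0.0361 FPKM (SD, n = 3) in siCtrl. The defining markers of the labelled line were therefore near 0. Of 6 Schwann cell markers, 5 were over 1 FPKM, with Sox10 at 218 ± 17.6, S100b at 236 ± 14.6 and Erbb3 at 48.7 ± 3.97 FPKM (SD, n = 3) in siCtrl. The summed FPKM of the Schwann cell markers ran from 572 to 650 in siCtrl and from 542 to 545 in siNQO1, and that of the chromaffin markers from 167 to 176 and from 109 to 120, nearly all of it Scg2. Of the macrophage, lymphocyte, fibroblast and endothelial markers, 5 were over 1 FPKM in any library, namely Cd68, Cd14, Cd3e, Pdgfra and Tek. The summed FPKM was 23.6 to 24.4 under siCtrl and 21.4 to 23.4 under siNQO1 for macrophages, 2.20 to 3.64 and 1.74 to 2.90 for lymphocytes, 50.6 to 51.4 and 46.0 to 49.4 for fibroblasts, and 0.98 to 1.26 and 1.08 to 1.14 for endothelium. S100b, Erbb3 and Scg2 were lower after knockdown (log2 fold changes -0.45, -0.43 and -0.59), Pmp22 was higher (0.28), each at an adjusted p under 0.05, and the part of these markers in the results below was not tested. In bulk RNA, fewer cells of a type and less RNA per cell cannot be told apart.

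Stat3, Stat5a and Socs3 were lower in siNQO1, no member was higher, and Stat2, Stat5b, Stat6, Jak1 and Jak2 did not pass the test. The test was the quasi-likelihood test of edgeR on the read counts, with p-values adjusted over the 12420 genes left by a filter for low counts, which all 8 measured members passed. At an unadjusted p under 0.05, 0 members were higher and 3 lower, and DESeq2 and limma voom also called 0 higher and 3 lower. The 3 lower members are 37.5% of the 8 measured. Among all genes tested, 7.38% were lower and 5.27% were higher at the same threshold, an adjusted p under 0.05. The paper asked for a fold of 2 as well, and no member passed both thresholds, as 0.435% of all genes did. The median log2 fold change was -0.05 over the 8 members and 0.01 over all genes tested. The paper calls the replicates biological without saying whether they were separate cultures. The p-values cover only the spread between these 6 samples.

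**Figure D1:**
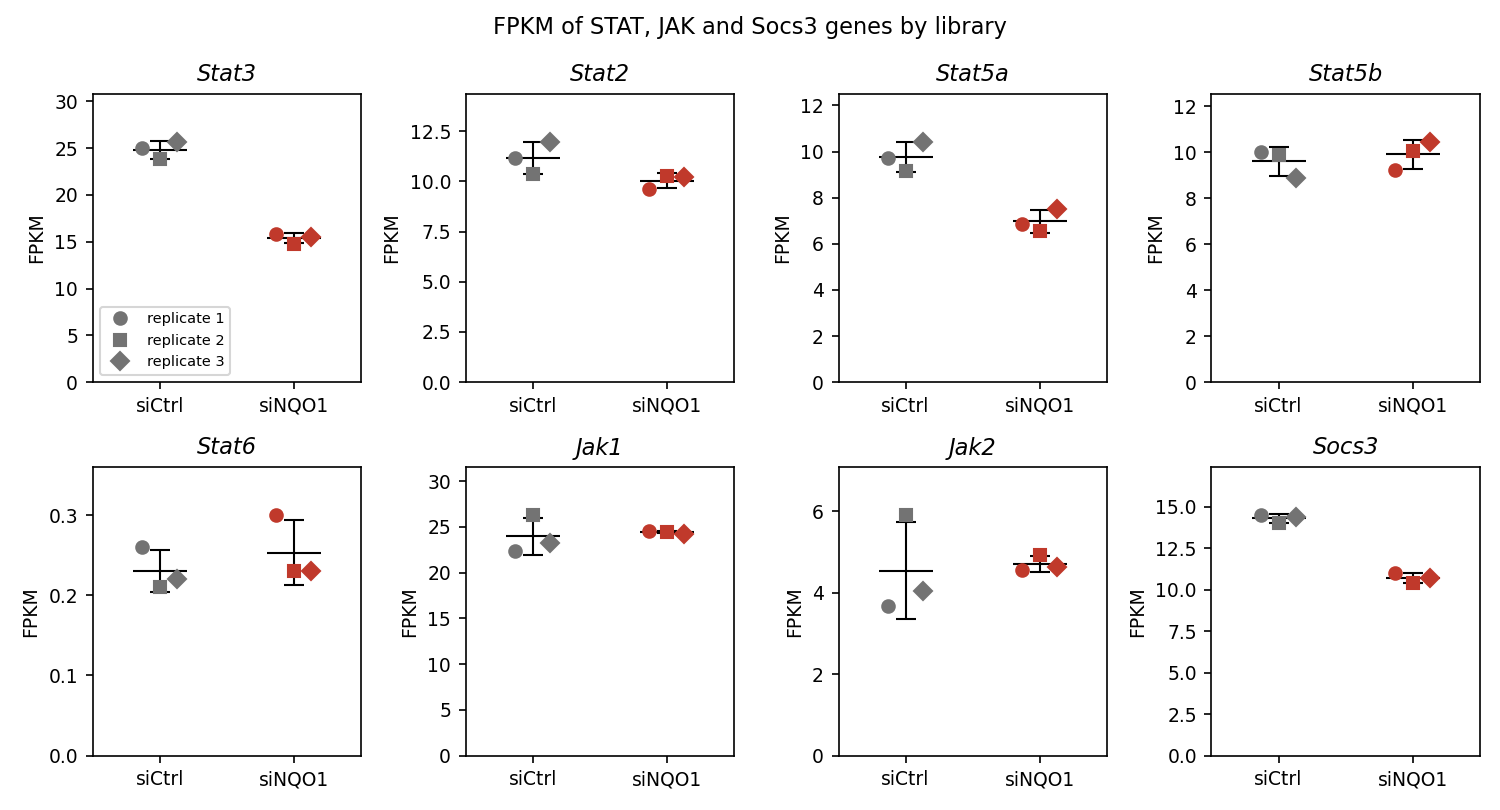
FPKM (vertical axes, each from 0) of the 8 measured genes in the siCtrl (gray) and siNQO1 (red) libraries, with a point per replicate and bars for the mean and SD of 3 libraries. The siNQO1 points of Stat3, Stat5a and Socs3 lie well below those of siCtrl, and siCtrl replicate 2 is the highest library for Jak2 at 5.90 FPKM.

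Stat3 (ENSRNOG00000019742, chromosome 10), the factor downstream of gp130 cytokines, showed the largest fall among the members. Its level was 25.02, 23.79 and 25.69 FPKM under siCtrl and 15.81, 14.80 and 15.51 FPKM under siNQO1. Every siNQO1 library therefore lay below every siCtrl library, with a gap far wider than the range within either group. The means were 24.8 ± 0.964 and 15.4 ± 0.519 FPKM (SD, n = 3), and siNQO1 kept 61.9% of the control level. These values rest on 2493 to 4620 reads per library. The log2 fold change was -0.68 (standard error 0.0559, 95% interval -0.81 to -0.55, adjusted p = 0.000471 from edgeR), which ranked 25 by p-value among all genes tested. By size, 190 genes (1.53% of those tested), Stat3 included, had a log2 fold change this low or lower. Stat3 passed without each of the 6 libraries in turn, with the highest adjusted p at 0.00575 from edgeR. The paper counts Stat3 among its differentially expressed genes, for which it asked for a fold of 2, whereas 61.9% of the control level remained here. Stat3 is also one of the genes that the study chose from these samples for RT-qPCR. The paper reports that RT-qPCR found it lower too, and those values were not analysed here.

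Stat5a (ENSRNOG00000019496) and Stat5b (ENSRNOG00000019075), which transmit growth hormone, prolactin and interleukin signals, encode closely related proteins and lie next to each other and to Stat3 on chromosome 10. Stat5a was at 9.74, 9.14 and 10.43 FPKM under siCtrl and at 6.86, 6.55 and 7.49 FPKM under siNQO1. The groups did not overlap, and 71.3% of the control level remained. Its log2 fold change was -0.48 (standard error 0.0802, 95% interval -0.66 to -0.29, adjusted p = 0.00774 from edgeR), and it passed without each library in turn (highest adjusted p = 0.0399 from edgeR). Stat5b was at 10.03, 9.90 and 8.90 FPKM in siCtrl and at 9.24, 10.04 and 10.47 FPKM in siNQO1, in the same order of replicates. These ranges overlapped, and the log2 fold change of 0.06 had a 95% interval from -0.11 to 0.23 (adjusted p = 0.640 from edgeR), which leaves out a fall of the size seen in Stat5a. The ratio of Stat5a to Stat5b FPKM was 0.971, 0.923 and 1.17 under siCtrl and 0.742, 0.652 and 0.715 under siNQO1. The control cells thus held nearly equal levels of both RNAs, and every siNQO1 library held less Stat5a than Stat5b. The exact two-sided permutation test of this ratio, which was chosen after the values had been seen, had p = 0.10. That is the smallest p-value this permutation test can give for 3 libraries against 3. The coding sequences of both genes are alike, so reads between them may have been dropped as not unique, and the split is uncertain to that extent.

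The sequences before the Stat3 and Stat5a genes are shown because these STAT genes passed the test and their windows reach beyond the annotated gene. They were taken from RefSeq on the GRCr8 build, which is not the build the authors aligned to, and are written on the strand of the gene. For Jak2, Stat5a and Stat6 the 250 bases before the annotated start lay wholly outside the gene. In Stat2, Stat3 and Stat5b another transcript begins farther out, so that 65, 154 and 226 of the 250 bases lay inside the gene, and the window of Socs3 lay inside it in full. These 4 windows were left out of the counts below, Jak1 had none, and of Stat3 only the 96 bases beyond the outermost start are printed. Capitals mark the letters CCAAT (the CCAAT box), GGGCGG (the GC box) and TGACG (a half-site of the cyclic AMP response element), on either strand.

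Stat3, chr10:86363514-86363609 (GRCr8, minus strand): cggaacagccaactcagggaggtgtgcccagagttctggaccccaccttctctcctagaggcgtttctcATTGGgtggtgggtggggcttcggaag

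Stat5a, chr10:86285609-86285858 (GRCr8, plus strand): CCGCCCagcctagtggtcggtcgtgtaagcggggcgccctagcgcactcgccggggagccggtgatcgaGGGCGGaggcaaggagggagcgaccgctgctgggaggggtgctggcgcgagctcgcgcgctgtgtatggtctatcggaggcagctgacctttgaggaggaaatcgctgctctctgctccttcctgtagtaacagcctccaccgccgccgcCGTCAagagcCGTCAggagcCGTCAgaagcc

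In the Stat3 stretch the CCAAT letters stand once, on the opposite strand, starting 27 bases before the outermost start. The Stat5a window holds 3 copies of TGACG on the opposite strand within the last 31 bases and 2 GC boxes. Of the 3 windows counted, that of Stat6 also holds TGACG and that of Jak2 a GC box. Neither of these genes passed the test with all libraries. The GC content of the Stat5a window was 67.6%, against a median of 51.2% over 33469 windows of this length, some of which overlap genes too. Among all windows, 34.0% hold CCAAT, 30.5% hold GGGCGG and 18.2% hold TGACG. The letters of the site that STAT dimers bind, TTCNNNGAA, stand in 7.67% of all windows and in none of those of Jak2, Stat5a and Stat6. The same search found no TGACNNNGC, the core of the antioxidant response element, which overlaps TGACG where a G follows TGAC and stands in 10.1% of all windows, and no TGANTCA, the AP-1 site, which stands in 6.34%. These matches describe letters in a window, and no binding was measured.

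Stat2 (ENSRNOG00000031081, chromosome 7), a factor of type I interferon signals, was at 11.17, 10.38 and 11.98 FPKM under siCtrl and at 9.63, 10.27 and 10.22 FPKM under siNQO1. The groups did not overlap, though siCtrl replicate 2 lay just above the highest siNQO1 library. Its log2 fold change of -0.14 did not pass (standard error 0.0713, 95% interval -0.30 to 0.02, adjusted p = 0.229 from edgeR). Without siCtrl replicate 2 it passed, at -0.20 (adjusted p = 0.0212 from edgeR). Stat6 (ENSRNOG00000025023, chromosome 7), the factor of interleukin-4 signals, was the member with the lowest level, at 0.26, 0.21 and 0.22 FPKM in siCtrl and 0.30, 0.23 and 0.23 FPKM in siNQO1. It rested on 31 to 42 reads per library, and the interval of its log2 fold change, -0.40 to 0.68, shows how little this depth can tell. In FPKM the groups of 4 members did not overlap, Stat2, Stat3, Stat5a and Socs3, all lower in siNQO1, where 19.4% of all genes tested were lower with no overlap and 14.2% were higher with none.

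Stat3 held the largest share of STAT RNA in every library, and this share was smaller after knockdown. The summed FPKM of the 5 measured STAT members was 55.6 ± 1.97 FPKM under siCtrl and 42.5 ± 1.19 FPKM under siNQO1 (SD, n = 3). Of this sum, Stat3 took 44.5%, 44.5% and 44.9% under siCtrl and 37.8%, 35.3% and 35.3% under siNQO1. From siCtrl to siNQO1 the mean share differed by -8.50 points for Stat3, -1.19 for Stat5a, 5.99 for Stat5b, 3.52 for Stat2 and 0.183 for Stat6. For each of these 5 shares the groups did not overlap (exact two-sided permutation p = 0.10 each, the smallest possible and the same after adjustment over the 5). Shares of one sum are not independent, and a smaller share of Stat3 by itself makes the others larger.

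**Figure D2:**
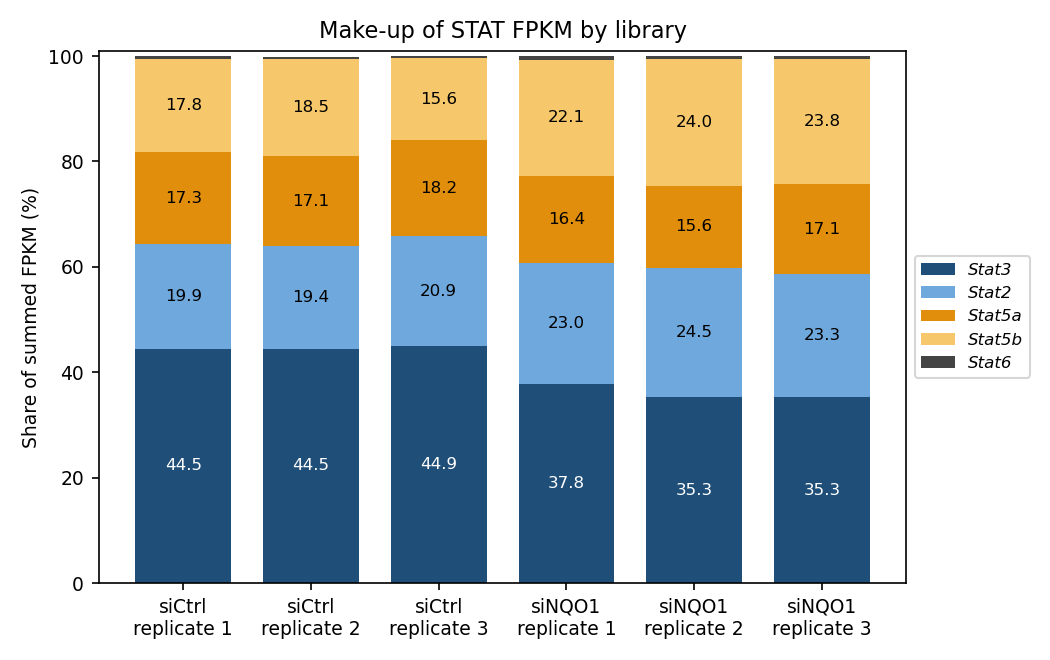
Share of each STAT gene (vertical axis, percent of the summed FPKM of Stat2, Stat3, Stat5a, Stat5b and Stat6) in each of the 6 libraries on the horizontal axis. Stat3 takes 44.5% to 44.9% in siCtrl and 35.3% to 37.8% in siNQO1, and the bands of Stat5b and Stat2 are wider in siNQO1.

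Jak1 (ENSRNOG00000011157, chromosome 5), the kinase shared by gp130, interferon and gamma-chain receptors, was at 22.39, 26.28 and 23.20 FPKM under siCtrl and at 24.55, 24.43 and 24.27 FPKM under siNQO1. The siNQO1 libraries lay inside the range of siCtrl, and the log2 fold change of 0.04 had a 95% interval from -0.10 to 0.18 (adjusted p = 0.709 from edgeR). A change of Jak1 as large as that of Stat3, in either direction, lies outside this interval. Jak2 (ENSRNOG00000059968, chromosome 1), the kinase of the growth hormone, prolactin and erythropoietin receptors, was at 3.68, 5.90 and 4.04 FPKM in siCtrl and at 4.56, 4.92 and 4.62 FPKM in siNQO1. Among the controls, replicate 2 was above every siNQO1 library and the other replicates were below every one. With all libraries the log2 fold change was 0.06 (standard error 0.157, 95% interval -0.29 to 0.42, adjusted p = 0.827 from edgeR). Without siCtrl replicate 2 Jak2 was higher in siNQO1, at 0.29 (adjusted p = 0.0154 from edgeR), so the call for Jak2 turned on this library. Without siCtrl replicate 2, however, 33.3% of all genes tested were called, 17.2% higher and 16.1% lower, and of the members 4 were lower and 1 was higher. Jak1 made up 84.2% ± 2.26 (SD, n = 3) of the summed FPKM of Jak1 and Jak2 under siCtrl and 83.9% ± 0.564 (SD, n = 3) in siNQO1 (exact two-sided permutation p = 0.90).

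Socs3 (ENSRNOG00000002946, chromosome 10), the feedback inhibitor, was at 14.50, 14.01 and 14.38 FPKM under siCtrl and at 10.99, 10.39 and 10.73 FPKM under siNQO1. The groups did not overlap, and the spread within each was small, with a coefficient of variation of 1.79% in siCtrl and 2.81% in siNQO1. The log2 fold change was -0.40 (standard error 0.0871, 95% interval -0.60 to -0.21, adjusted p = 0.0207 from edgeR), and 74.9% of the control level remained. It rested on 341 to 504 reads per library, and its call was lost when a single library was left out, with adjusted p = 0.0663 without siCtrl replicate 3 and adjusted p = 0.0547, 0.0896 and 0.0778 without siNQO1 replicates 1, 2 and 3 (edgeR). The fold change itself stayed between -0.45 and -0.39 in these fits. Socs3 fell by less than Stat3, and the ratio of Socs3 to Stat3 FPKM was 0.580, 0.589 and 0.560 in siCtrl and 0.695, 0.702 and 0.692 in siNQO1. This ratio, also chosen after the values had been seen, was higher in every siNQO1 library (exact two-sided permutation p = 0.10, the smallest possible).

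**Figure D3:**
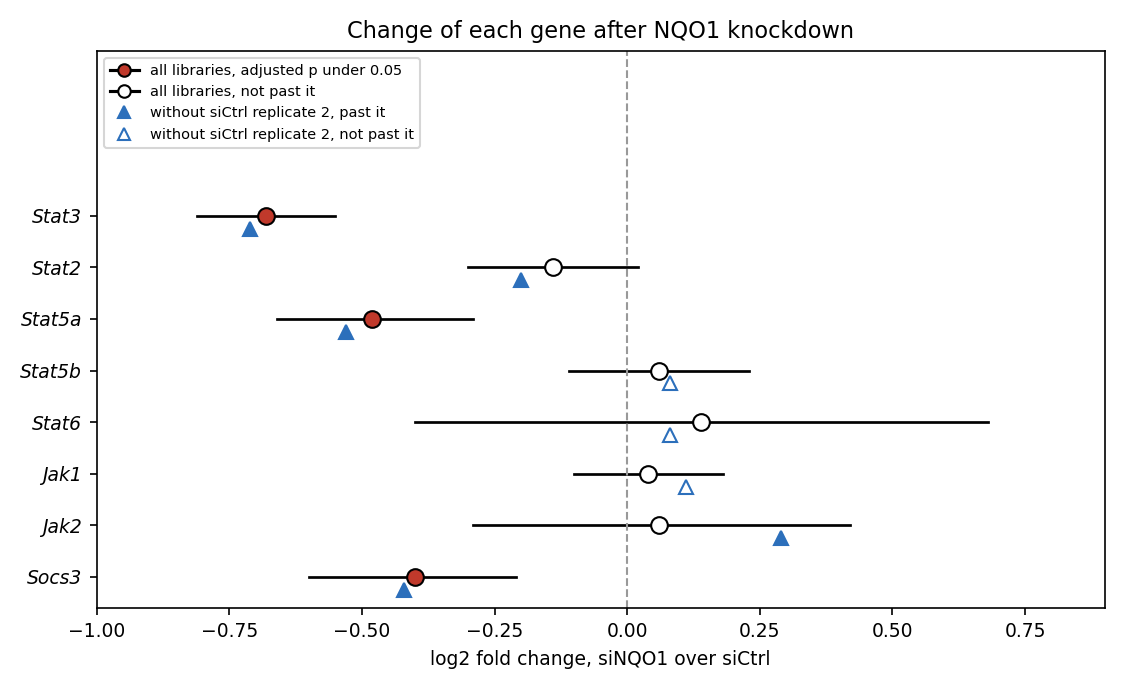
Log2 fold change of siNQO1 over siCtrl (horizontal axis) for each gene, with circles for all 6 libraries, lines for the 95% interval of the quasi-likelihood fit and triangles for the fit without siCtrl replicate 2. Filled symbols passed an adjusted p under 0.05, which holds for Stat3, Stat5a and Socs3 in both fits and for Stat2 (-0.20) and Jak2 (0.29) only without siCtrl replicate 2.

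By level, Stat3 and Jak1 stood first in siCtrl at 24.8 and 24.0 FPKM, and their ranges overlapped. Socs3 followed at 14.3, then Stat2 at 11.2, Stat5a at 9.77 and Stat5b at 9.61 FPKM, among which Stat2 and Stat5a, and Stat5a and Stat5b, overlapped. Jak2 at 4.54 and Stat6 at 0.230 FPKM came last. In siNQO1 Jak1 stood alone at the top at 24.4 FPKM, above Stat3 at 15.4 FPKM, and Stat5a at 6.97 FPKM lay below Stat2 and Stat5b at 10.0 and 9.92 FPKM.

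Of the family genes that were not chosen as members, Tyk2 and Jak3 were analysed. Tyk2, a JAK of interferon receptors, was at 4.71, 4.87 and 4.77 FPKM under siCtrl and at 5.80, 6.63 and 5.81 FPKM under siNQO1, and was higher (log2 fold change 0.36, adjusted p = 0.0180 from edgeR). Jak3, the kinase of the gamma chain, was at 2.71 ± 0.0700 FPKM under siCtrl and 2.09 ± 0.169 FPKM under siNQO1 (SD, n = 3), just short of the threshold (log2 fold change -0.36, adjusted p = 0.0501 from edgeR). Tyk2 lost its call in every fit that left out a library other than siCtrl replicate 2 (up to adjusted p = 0.0958 from edgeR). Jak3 lay close enough to the threshold to pass without siCtrl replicate 2 (adjusted p = 0.0211), with RLE factors, library size alone or a stricter filter (adjusted p = 0.036 to 0.048 from edgeR) and in limma voom (adjusted p = 0.0405), but not in DESeq2.

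The rest of the pathway was described by lists of ligands, receptors, regulators and target genes. Over the 11 lists, which include Tyk2 and Jak3, 94 genes were tested, of which 8 were higher, 4 were lower and 82 did not pass, with a median log2 fold change of 0.08. Among all genes tested, 12.6% were called in either direction. Without siCtrl replicate 2, 16 of the 94 genes were higher and 11 lower. In that fit 17.2% of all genes tested were higher and 16.1% lower, and the counts of single lists below stand beside these shares. Without any 1 siNQO1 library, 1 of the 94 genes was higher.

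Among 5 gp130 cytokines tested, Cntf, the ciliary neurotrophic factor, was higher, from 5.29 ± 0.508 to 7.08 ± 0.558 FPKM (SD, n = 3; log2 fold change 0.43, adjusted p = 0.0455 from edgeR), and Clcf1 and Lif had log2 fold changes of 0.23 and -0.04. None of 7 gp130 receptor genes passed in edgeR or DESeq2, and 1 was lower at an unadjusted p under 0.05. Il6st, which encodes gp130 itself, was at 9.61 ± 1.15 FPKM under siCtrl and 7.90 ± 0.372 FPKM under siNQO1 (SD, n = 3). Its log2 fold change was -0.27 (adjusted p = 0.0877 from edgeR), and it passed only without siCtrl replicate 3 (adjusted p = 0.0494). Il6r had a log2 fold change of -0.16. Of 7 interferon and interleukin-10 receptor genes, Ifngr1 and Ifnar1, chains of the interferon gamma and type I interferon receptors, were lower (log2 fold changes -0.42 and -0.31, adjusted p = 0.00499 and 0.0162 from edgeR), and Ifngr2 and Il10rb had log2 fold changes of 0.16 and -0.04. Of 5 hormone, gamma-chain and beta-chain receptor genes, Il15ra was higher, on 11 to 34 reads per library (log2 fold change 1.15, adjusted p = 0.0308 from edgeR), and Csf2ra and Il13ra1 had log2 fold changes of 0.41 and 0.11. Cntf, Ifnar1 and Il15ra lost their calls with at least 1 library left out (highest adjusted p of 0.210, 0.0693 and 0.116 from edgeR). Cntf did not pass in DESeq2 either (adjusted p = 0.0533), which gave no adjusted p for Il15ra, and Il15ra lost its call with the replicate number as a block (adjusted p = 0.0651 from edgeR).

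Of the other 7 SOCS family genes, all measured, none passed in edgeR, 1 was higher and 1 lower at an unadjusted p under 0.05, and DESeq2 called 1 higher. Socs5 and Socs1, the most abundant of them, had log2 fold changes of 0.12 and -0.20 (adjusted p = 0.230 and 0.202 from edgeR). The median log2 fold change of the list was 0.19. Without siCtrl replicate 2, 2 of them were higher and 1 was lower. None of 11 PIAS and phosphatase genes passed in the edgeR test described above, where 3 were higher and 1 lower at an unadjusted p under 0.05. DESeq2 called 1 higher. The lower gene, Ptpn6, was just short of the threshold (log2 fold change -0.56, adjusted p = 0.0506 from edgeR). It passed without siCtrl replicate 2 (adjusted p = 0.00583 from edgeR). None of 9 adaptor and coactivator genes passed in that edgeR test or in DESeq2, and 1 was higher at an unadjusted p under 0.05. In these lists Ptpn11 and Sh2b3 had log2 fold changes of -0.07 and -0.09, and Src and Sh2b1 had log2 fold changes of 0.08 and 0.17. Sh2b1 lay close to the threshold (adjusted p = 0.0527 from edgeR). It was called higher without siCtrl replicate 2 (adjusted p = 0.023 from edgeR). The same held with upper-quartile factors, library size alone or a stricter filter (adjusted p = 0.0402 to 0.0457 from edgeR). Without siCtrl replicate 2, 2 PIAS and phosphatase genes were higher and 4 were lower.

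From a list of known STAT3 targets that leaves out Socs3, 22 genes were tested. Of these, 5 were higher, Birc5 was lower and 16 did not pass, with a median log2 fold change of 0.12. Among all genes tested, 5.27% were higher and 7.38% lower, with a median of 0.01. The target lists were chosen with earlier results of these data known, and STAT3 activity was not tested. Leaving out siCtrl replicate 2 gave 6 higher and 2 lower in this list. The transcription factor Cebpd was at 12.39, 12.43 and 13.08 FPKM in siCtrl and at 19.66, 19.64 and 21.24 FPKM in siNQO1 in the order of replicates, and every siNQO1 library was the higher (log2 fold change 0.69, adjusted p = 0.00155 from edgeR). Klf4, Junb, Bcl2l1, an inhibitor of apoptosis, and the cyclin Ccnd1 rose by 0.30, 0.27, 0.24 and 0.23 on the log2 scale, though Ccnd1 did not pass with the replicate number as a block (adjusted p = 0.0516 from edgeR). Birc5, which encodes survivin, had a log2 fold change of -0.29, and Cdkn1a and Twist1 had log2 fold changes of 0.11 and -0.16. Of 8 STAT5 targets, Bcl2l1 and Ccnd1, shared with the former list, were higher and none was lower, while Bcl6 and Ccnd2 had log2 fold changes of -0.19 and -0.04. Of 19 interferon target genes, the guanylate-binding protein Gbp2 was lower (log2 fold change -0.28) and none was higher, with 1 higher at an unadjusted p under 0.05 and none called higher by DESeq2, while B2m and Irf1 had log2 fold changes of 0.07 and -0.01. Leaving out siCtrl replicate 2 gave 2 higher and 2 lower interferon targets. With at least 1 library left out, Klf4, Junb, Bcl2l1, Ccnd1, Birc5 and Gbp2 no longer passed, and their adjusted p rose as far as 0.147, 0.0649, 0.0921, 0.102, 0.0846 and 0.0955 (edgeR), while Cebpd and Ifngr1 passed in all 6 such fits.

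**Figure D4:**
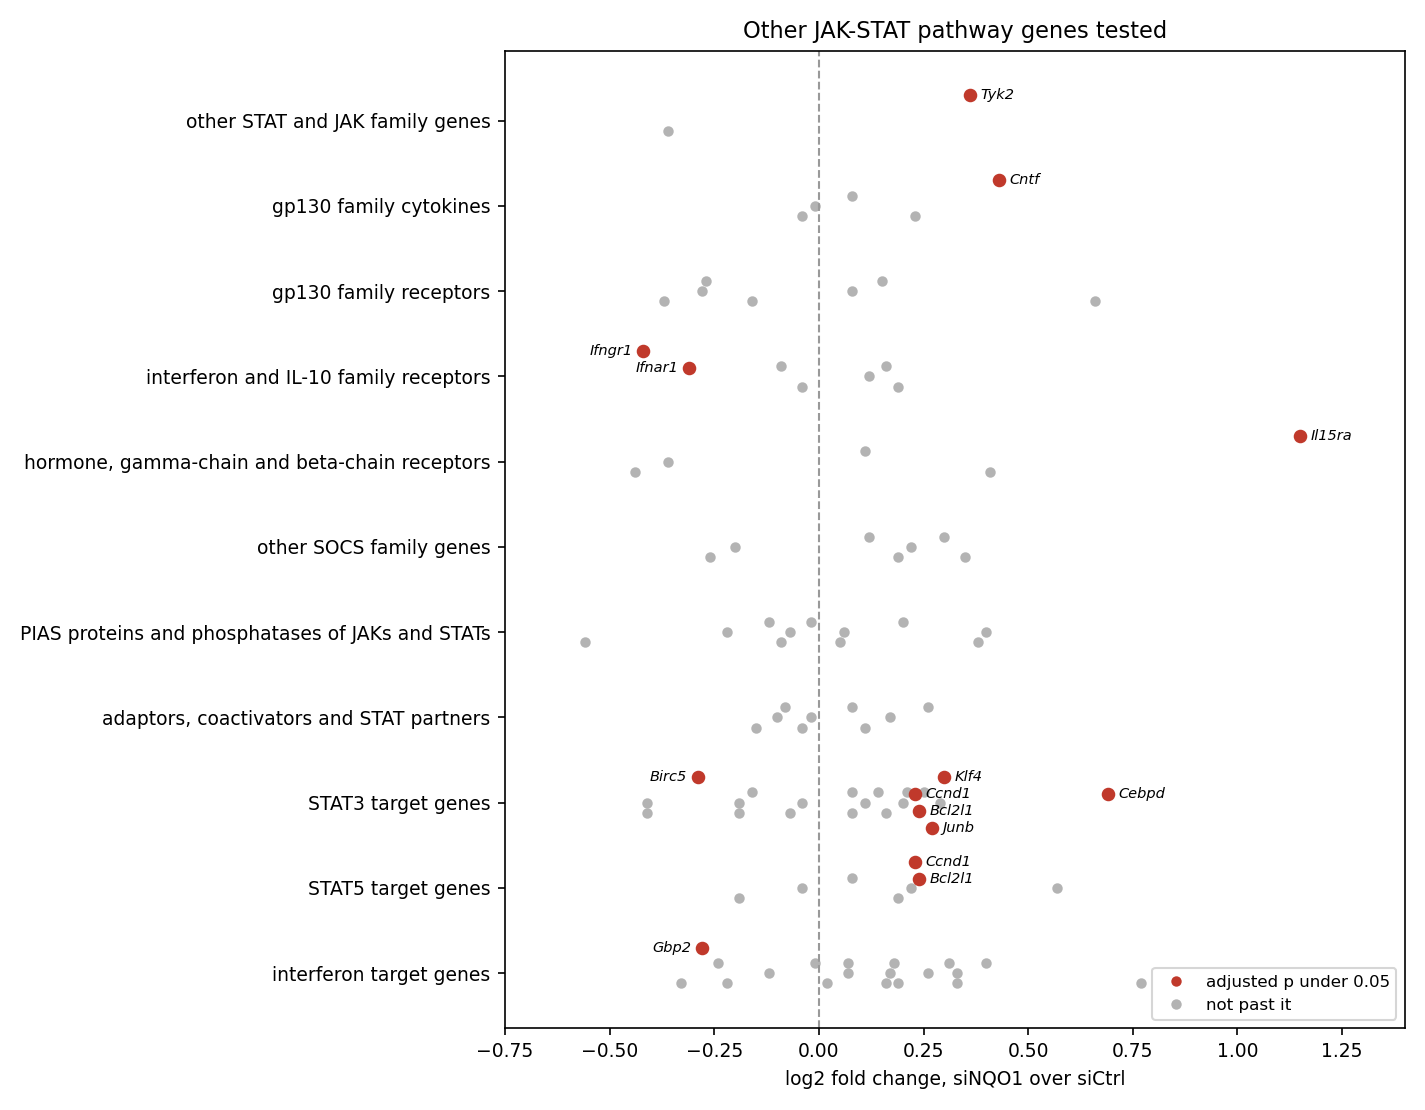
Log2 fold change of siNQO1 over siCtrl (horizontal axis) for each tested gene of 11 JAK-STAT lists (vertical axis; a gene may stand in more than 1 list), with red points for an adjusted p under 0.05 and gray points for the rest. Among STAT3 targets 5 points past the threshold lie above 0 and Birc5 lies below, and no point of the list of other SOCS genes is red.

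Of 10 genes near Stat2, Stat3, Stat5a, Stat5b and Stat6 in the RefSeq order, 4 were lower and none was higher in the edgeR test described above. Among all genes tested, 7.38% were lower and 5.27% higher. Each of the 4 fell by less than Stat3. Beside the cluster of Stat5b, Stat5a and Stat3, the lysosomal proton pump subunit Atp6v0a1 and Ghdc were lower (log2 fold changes -0.33 and -0.34, adjusted p = 0.00761 and 0.0201 from edgeR). Kcnh4, Rab5c, Ptrf and Naglu of the same stretch did not pass, with log2 fold changes of 0.22, 0.10, 0.19 and 0.15. Ptrf was called higher in DESeq2 (adjusted p = 0.0276), without siCtrl replicate 2 (adjusted p = 0.00836 from edgeR) and, in edgeR, with library size alone or a stricter filter (adjusted p = 0.0476 and 0.0481). Timeless, near Stat2, and Nab2, next to Stat6, were lower (log2 fold changes -0.38 and -0.23, adjusted p = 0.0209 and 0.0217 from edgeR), and Il23a and Lrp1 had log2 fold changes of 0.35 and -0.08. Ghdc, Timeless and Nab2 lost their calls with a library left out (highest adjusted p of 0.0829, 0.0798 and 0.0793 from edgeR).

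For each member that passed the test, the genes with the nearest profile were looked up among the 8610 genes whose log2 CPM averaged over 3. CPM is the count scaled to the size of the library. Nearness was the root-mean-square distance of log2 CPM, relative to the siCtrl mean, over 6 libraries. Because this distance includes the siNQO1 libraries, the genes picked by it have similar fold changes by construction. Nearest to Stat3 were Acp2, Vhl and Armc5 at distances of 0.023, 0.038 and 0.046, with log2 fold changes of -0.67, -0.72 and -0.73. Nearest to Stat5a were Rhpn1, Ilvbl and LOC100910872 at 0.031, 0.033 and 0.042, with log2 fold changes of -0.47, -0.47 and -0.42. Nearest to Socs3 were Tf, which encodes transferrin, Sema3b and Aspscr1 at 0.018, 0.022 and 0.029, with log2 fold changes of -0.41, -0.38 and -0.39. Relative to the siCtrl mean, Stat3 lay at -0.62, -0.73 and -0.68 under siNQO1 and Acp2 at -0.66, -0.71 and -0.64, on the log2 CPM scale.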

How the data were processed

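RNA of 3 siNQO1 and 3 siCtrl samples was sequenced from stranded, paired-end libraries. The authors trimmed the reads, aligned them with TopHat2 (RGSC6) and kept those that mapped uniquely. The deposited read counts per gene are whole numbers, with no normalization by the authors. FPKM values, which the authors derived by scaling to transcript length and depth, were deposited beside the counts. For the counting step, the tool and strand setting are not given in the sources used, so overlapping genes may share reads.

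Read counts were tested in edgeR 4.0.16 (R 4.3.3), with filterByExpr for low counts, TMM scaling, glmQLFit and glmQLFTest, no block, and Benjamini-Hochberg adjustment. FPKM served for levels, shares and exact two-sided permutation tests. Same-numbered libraries deviated from their group means with correlations of -0.0383, 0.161 and 0.0568, so libraries were treated as unpaired. Members, lists and rules for named genes were chosen with earlier results of these data known. The rules named all members, Nqo1, Jak3 and Tyk2, up to 6 called genes of each list and its 2 most abundant genes that were not called, genes near the Stat genes, and the 3 nearest profiles of each called member. Ptpn6 was named outside these rules. Grb2 and Ndufa13, whose symbols have 2 rows, were left out, and some other genes are not reported here. Alternatives used DESeq2 1.42.0, edgeR's exact test, limma 3.58.1, other scalings and filters, a replicate block and each library left out.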

Additional observations from a re-analysis of the deposited data

How the results depend on the processing

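Over 17 alternatives the log2 fold change of Stat3 lay between -0.72 and -0.64 and that of Stat5a between -0.53 and -0.42, and both passed in each. Socs3 passed in 13 of 17, Stat2 and Jak2 in 1, and Stat5b, Stat6 and Jak1 in none. With the replicate number as a block, Stat3, Stat5a and Socs3 had log2 fold changes of -0.68, -0.47 and -0.40 (adjusted p = 0.0018, 0.0093 and 0.0425 from edgeR), and 610 genes were higher and 740 lower over all genes, against 654 and 917 without it. The block changed no call of a member, and among named genes Ccnd1 and Il15ra lost theirs (adjusted p = 0.0516 and 0.0651 from edgeR). With 1 library left out at a time, 167 to 2164 genes were higher and 351 to 2036 lower, the larger numbers without siCtrl replicate 2, 0 to 1 members were higher and 2 to 4 lower, 1 to 16 pathway genes were higher and 2 to 11 lower, and 1 to 6 neighbors of the Stat genes were called. In the same fits the log2 fold change lay between -0.20 and -0.08 in Stat2, -0.03 and 0.22 in Stat6, -0.03 and 0.11 in Jak1, -0.09 and 0.29 in Jak2, and -0.45 and -0.39 in Socs3. Among named genes that did not pass, the sign also turned for Ccnd2 (-0.22 to 0.11), Irf1 (-0.08 to 0.03, and 0.00 with upper-quartile factors), Kcnh4 (-0.12 to 0.56) and Lif (-0.22 to 0.05). On raw counts with no length correction, the shares of Stat2 and Stat5b were 4.36 and 4.58 points larger in siNQO1. The cause of these shifts was not tested. Stat6 and Il15ra had no adjusted p in DESeq2 and were not tested at a CPM over 1. Precision is limited by 3 libraries a group and, in Stat6 and Il15ra, by few reads.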
